A study of Mus musculus with 24 samples.

Results

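Among 10 members of the B lineage transcription factor network, only Bach2 was called lower in B cell progenitors labelled as lacking both PLCγ isoforms. In B cell progenitors labelled Plcg1-/-Plcg2-/- it fell by 2.21 on the log2 scale (standard error 0.32, adjusted p = 0.00747, edgeR), and none of the other 9 members passed the same test. Of all 15001 genes tested there, 0.893% were called. With a replicate block, an alternative given below, Pax5 and Tcf12 were also called lower and Bcl11a higher. Under that block 3.67% of all genes were called. The 10 genes described here encode regulators that specify the B lineage: Ebf1, Pax5, Tcf3, Tcf12, Foxo1, Bcl11a, Lef1, Bach2, Pou2af1 and Id3. They were chosen by gene symbol, with earlier results of these data known. All 10 had a row among the 24421 genes of the count tables, and all 10 passed the filter on low counts in every comparison. RNA came from a pair of populations sorted from mouse bone marrow, the Lin-IL-7R+ common lymphoid progenitors (CLPs) and progenitors of the B lineage sorted as B220+IgM-IL-7R+, called B cell progenitors here, of 4 genotypes with 3 mice each, 24 libraries from 12 mice in all. The genotypes, spelled with PLCgamma1 and PLCgamma2 in the labels, were Plcg1+/+Plcg2+/+ (WT), Plcg1-/-Plcg2+/+ (G1KO), Plcg1+/+Plcg2-/- (G2KO) and Plcg1-/-Plcg2-/- (DKO). All 4 carried MxCre, a Cre transgene under the type I interferon inducible Mx promoter, and a Rosa-YFP reporter, and all donors had received poly(I-C) to switch Cre on. Plcg1 was therefore deleted from floxed alleles after birth and in whichever cells made Cre, whereas Plcg2 was absent from the germline. Marrow of donors of a mixed 129 and C57BL/6 background was transplanted into lethally irradiated wild-type recipients, and cells of donor origin were sorted from these, so that each library stands for a recipient and the number of donors behind a genotype is not given in the sources used here. Donors were adults of both sexes, and their age is not given for each library in the sources used here.

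As background, the B lineage is set up by a small network of transcription factors. The E proteins E2A (encoded by Tcf3) and HEB (Tcf12) bind DNA at E-boxes, and Id3 dimerizes with E proteins and keeps them off DNA. E proteins and FOXO1 act upstream of EBF1, the factor that opens B lineage genes, and EBF1 in turn activates Pax5, which commits progenitors to the B lineage. BCL11A is needed for lymphoid progenitors, LEF1 carries Wnt signals in early B cells, OCA-B (Pou2af1) is a B cell coactivator of octamer factors, and BACH2 is a repressor that holds down myeloid genes in lymphoid progenitors and acts at the pre-B cell receptor checkpoint and in later B cells. PLCγ enzymes split a membrane lipid into diacylglycerol and IP3, and the study asked whether they are needed for IL-7 receptor function in these cells.

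The members lie on 5 chromosomes of the mouse genome (mm10, GRCm38), with Ebf1 at chr11:44617317-45008091 and Bcl11a at chr11:24078056-24174123 on one chromosome, and Pax5 at chr4:44524757-44710487, Bach2 at chr4:32238804-32586108 and Id3 at chr4:136143497-136145755 on another. Reads of Bach2 and its antisense partner Bach2os cannot be told apart by strand where their exons overlap, since the library kit did not mark strand, and reads counted for Bach2os came to at most 8.90% of those counted for Bach2. The gene 5730488B01Rik overlaps Pax5 in the same way and had at most 26.3% of its reads. RefSeq promoters (GRCm38.p6) were found for all 10 members, 16 entries in all. In the 250 bases before each start, on either strand, 6 motifs were searched: the E-box CANNTG, the EBF site TCCCNNGGGA, the STAT site TTCNNNGAA, the LEF/TCF site CTTTGA, the FOXO site TGTTTAC and the octamer ATGCAAAT. No match overlapped one of another motif in these 16 windows. E-boxes were in 12 of the 16 windows and in 66.2% of all 32851 promoters. The STAT site, bound by the factors that cytokine receptors such as the IL-7 receptor activate, was in the Bach2 and Bcl11a windows and in 7.02% of all promoters. The EBF site was in the Foxo1 window and in 0.779% of all promoters, and the LEF/TCF site was in a Bach2 and a Lef1 window and in 13.8% of all. The FOXO site (3.17% of all promoters) and the octamer (1.60%) were in none of the 16. The windows of Bach2 and Bcl11a, the members with the largest differences in B cell progenitors of the DKO, and of Foxo1, the one with an EBF site, are printed with all motif matches in capitals. A match is a description of letters and no evidence of binding.

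Bach2, chr4:32417185-32417434, plus strand: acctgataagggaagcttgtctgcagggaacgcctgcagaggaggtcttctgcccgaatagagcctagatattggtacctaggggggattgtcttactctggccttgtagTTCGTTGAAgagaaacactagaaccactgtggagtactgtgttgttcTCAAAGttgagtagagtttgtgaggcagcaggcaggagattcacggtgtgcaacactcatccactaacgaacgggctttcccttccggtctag
Bcl11a, chr11:24080445-24080694, plus strand: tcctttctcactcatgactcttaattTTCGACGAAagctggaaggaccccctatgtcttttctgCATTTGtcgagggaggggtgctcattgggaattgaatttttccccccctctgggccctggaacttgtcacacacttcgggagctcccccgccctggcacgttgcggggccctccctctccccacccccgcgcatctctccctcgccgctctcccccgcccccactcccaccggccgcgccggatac
Foxo1, chr3:52268087-52268336, plus strand: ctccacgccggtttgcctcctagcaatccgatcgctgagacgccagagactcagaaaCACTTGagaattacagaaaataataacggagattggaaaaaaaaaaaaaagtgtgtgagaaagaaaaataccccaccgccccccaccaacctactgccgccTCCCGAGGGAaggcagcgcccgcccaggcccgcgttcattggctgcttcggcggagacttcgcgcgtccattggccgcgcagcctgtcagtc

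The Bach2 and Bcl11a windows lie inside the gene spans given above, so the starts meant here are downstream of the first base of each gene. In the Bach2 window the first capitals are the STAT site, 140 to 132 bases before the start, and the second are the LEF/TCF site on the opposite strand, 93 to 88 bases before it. In the Bcl11a window the STAT site lies 224 to 216 bases before the start and an E-box 186 to 181 bases before it. In the Foxo1 window the E-box lies 193 to 188 and the EBF site 92 to 83 bases before the start.

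Reads on genes ranged from 4232345 to 33219995 in CLP libraries and from 1479582 to 25057223 in B cell progenitor libraries, where 59.9% to 87.3% of reads fell on no gene against 17.9% to 45.2% in CLPs. Plcg2 fell in B cell progenitors labelled DKO (log2 fold change -1.35, adjusted p = 0.00251) and G2KO (-1.37, adjusted p = 0.0187) and in CLPs labelled DKO (-1.10, adjusted p = 0.0375), and in G2KO CLPs the value was -0.93 without a call (adjusted p = 0.368). Plcg1 counts did not separate the libraries labelled Plcg1-/-, with 56.1 to 185 CPM (counts per 10 to the power of 6 reads, TMM-normalized) in those of DKO B cell progenitors and 81.2 to 111 in those of WT. Counts were summed over the whole gene, so reads of exons left in place would still count. Why the counts did not separate these libraries was not tested, and the files offer no check of the Plcg1 label. All 12 libraries labelled Plcg1-/- had more Xist (1294 to 2314 CPM) than the 12 labelled Plcg1+/+ (23.6 to 743 CPM) and less of 4 Y-linked genes in sum (4.50 to 49.7 against 235 to 455 CPM). Donor sex and Plcg1 genotype therefore cannot be told apart in comparisons of G1KO or DKO with WT. The label of the CLPs was checked against markers fixed for this purpose. B lineage markers (Cd79a, Cd79b, Igll1, Vpreb1, Vpreb3 and Blnk) summed to 607 to 4743 CPM in CLPs and 1226 to 4875 in B cell progenitors, so that both populations carried B lineage RNA. In 4 CLP libraries, WT 1, G1KO 2, G2KO 2 and DKO 2, the progenitor gene Flt3 was at 196 to 735 CPM, against 25.8 to 115 in the other 8 CLP libraries and 28.4 to 111 in B cell progenitors. The B lineage marker Cd79a had a median of 434 CPM in those 8 libraries (358 to 1183) and 488 in B cell progenitors. In the 8 the markers thus go against the name of a progenitor before the B lineage. In the 4 Flt3-rich ones the median was 278 (107 to 837). Of these 4, DKO 2 had the 837 CPM, inside the range of the 8, so the same holds for it. CLP is used here as the name of the Lin-IL-7R+ sort, and comparisons between populations are between sorts. Myeloid markers were present in all libraries (1313 to 8281 CPM in sum for 8 genes), and Mpo alone reached 4335 CPM. In bulk RNA, fewer cells of a type and less RNA per cell cannot be told apart.

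Per length of merged exons, the members spanned a wide range of levels. Median levels over the 24 libraries, in CPM per kilobase, were 217 for Tcf3, 204 for Pou2af1, 76.9 for Ebf1, 60.6 for Id3, 50.5 for Lef1, 31.8 for Bach2, 25.5 for Tcf12, 23.9 for Foxo1, 23.2 for Bcl11a and 16.2 for Pax5. The ranges of neighbours in this order overlapped throughout, and Tcf3 (127 to 441) and Pou2af1 (43.6 to 473) did not differ beyond their spread. With the comprehensive gene models, which hold longer exons, Pou2af1 (204) stood above Tcf3 (172), and Lef1 dropped from 50.5 to 20.1 and Tcf12 from 25.5 to 11.1 CPM per kilobase. No member was close to absent: the lowest count in any library was 85 reads, for Id3 in G2KO B cell progenitor library 1.

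**Figure D1:**
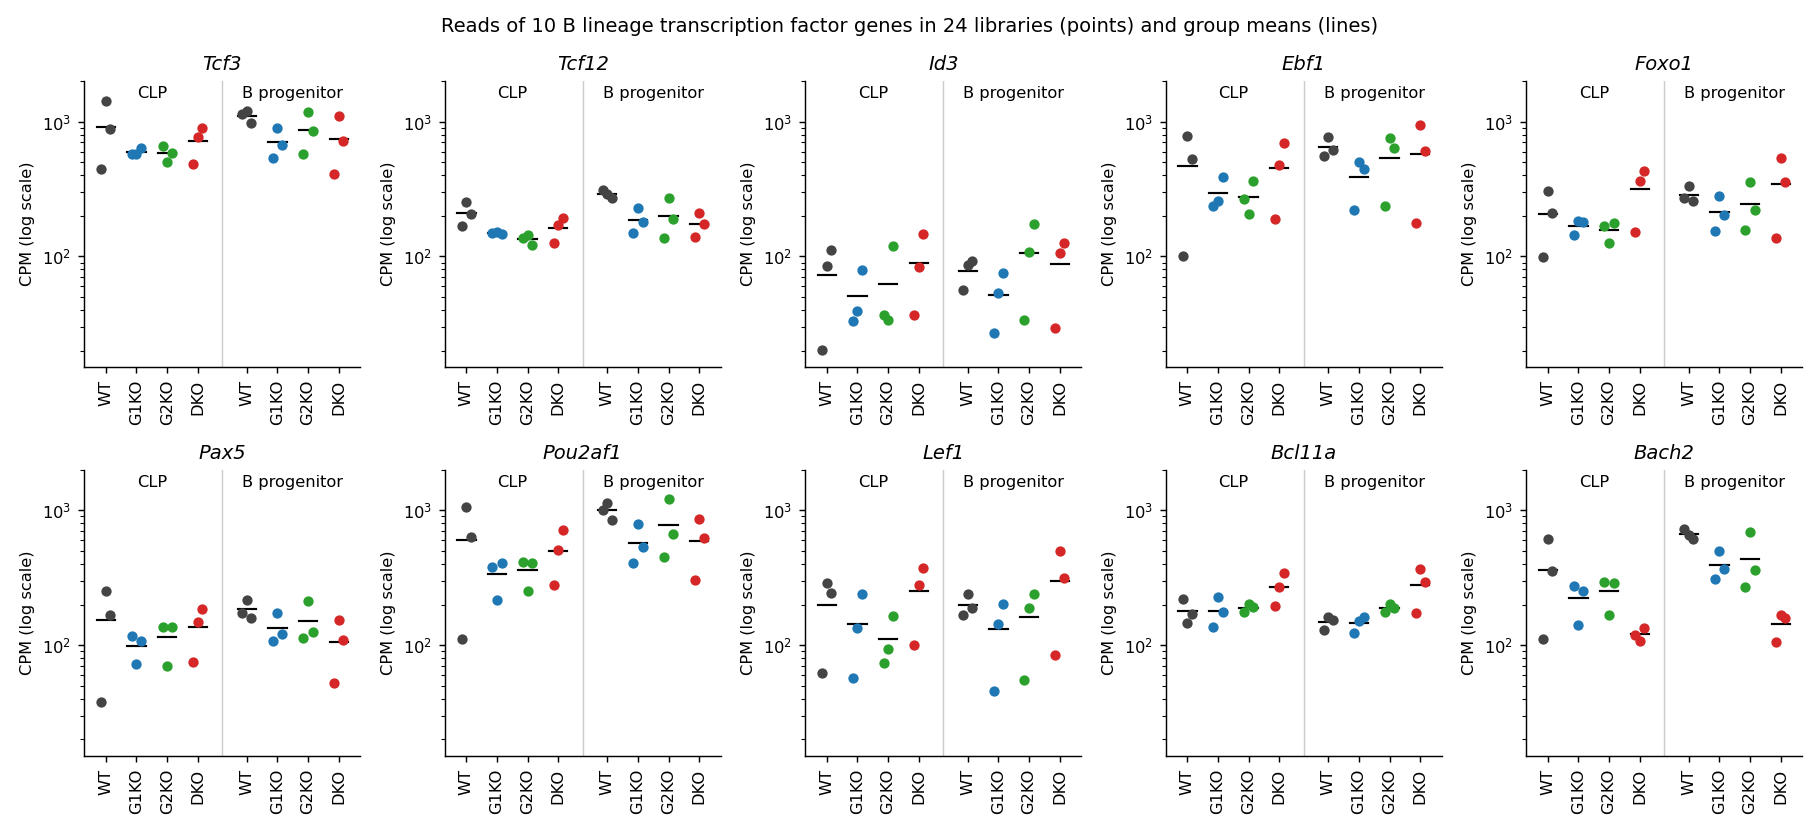
Normalized reads (CPM, log axis) of the 10 members in each library (points, replicates 1 to 3 from left to right) and the mean of each genotype (lines), in CLPs at the left and B cell progenitors at the right of each panel. The 3 DKO libraries of B cell progenitors sit between 105 and 166 CPM for Bach2, under all 9 other B cell progenitor libraries, whose lowest is 268.

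Among the E proteins, Tcf12 had lower mean counts in B cell progenitors of all 3 knockout genotypes than in WT, but no difference passed the test. Tcf12 stood at 312, 290.4 and 270.1 CPM in WT, at 149, 230 and 179 in G1KO, at 138, 273 and 188 in G2KO, and at 140.0, 209 and 174 in DKO B cell progenitors. The 3 WT libraries lay above all DKO and G1KO libraries, and G2KO library 2 lay among them. The log2 fold change was -0.74 in DKO (standard error 0.24, adjusted p = 0.223), -0.63 in G1KO (0.24, adjusted p = 0.467) and -0.52 in G2KO (0.24, adjusted p = 0.919). The fall in DKO was called with a replicate block, an alternative given below. In CLPs the values were -0.37, -0.49 and -0.64, again without a call (adjusted p = 0.663, 1.00 and 0.939).

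None of the differences of Tcf3 from WT passed the test. It had 1141, 1195 and 972 CPM in WT and 407, 1104 and 714 CPM in DKO B cell progenitors, where DKO library 2 lay inside the WT range and the others below it. Its log2 fold changes against WT lay between -0.64 and -0.33 over the 6 comparisons, with standard errors of 0.34 in each. Id3, the inhibitor of both, ranged from 20.3 CPM in WT to 148 in DKO among CLPs and from 27.2 in G1KO to 174 in G2KO among B cell progenitors, and the spread within a genotype covered that between genotypes. The third E protein gene, Tcf4, and the inhibitor genes Id1 and Id2 were added to describe the balance of the families, and Id4 did not pass the filter on low counts. Summed per kilobase, the 3 E protein genes exceeded Id1, Id2 and Id3 by a ratio of 3.20 to 6.98 in WT B cell progenitors and 2.12 to 4.27 in DKO. In CLPs the ratio was 1.52 to 5.57 in WT and 2.00 to 3.13 in DKO, so that the genotypes overlapped in both populations. None of the 6 tested genes of this list was called in either comparison of DKO with WT, beside 0.893% of all genes in B cell progenitors and 0.0921% in CLPs.

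Ebf1 varied widely between mice, and none of its differences from WT passed the test. In CLPs it had 99.9, 776 and 528 CPM in WT, 236, 259 and 386 in G1KO, 266, 206 and 360.1 in G2KO, and 189.6, 477 and 688 in DKO. In B cell progenitors it had 557, 774 and 615 CPM in WT, 219.7, 500.2 and 444 in G1KO, 235, 757 and 632 in G2KO, and 177, 938 and 602 in DKO. The lowest and the highest B cell progenitor libraries were both DKO. The G1KO libraries of this population all lay below the WT ones, without a call (log2 fold change -0.72, standard error 0.53, adjusted p = 0.511, edgeR). The log2 fold change in DKO was -0.18 in B cell progenitors (95% interval -1.33 to 0.96) and -0.06 in CLPs (-1.38 to 1.27), and both intervals include falls and rises.

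Foxo1, which acts with E proteins upstream of Ebf1 and on Rag1 and Rag2, had the same wide spread in DKO. It reached 535 CPM in DKO library 2 and was at 137 in DKO library 1 of the same B cell progenitor group, around the WT libraries at 273, 331 and 258. Log2 fold changes in DKO were 0.25 in B cell progenitors (standard error 0.41) and 0.61 in CLPs (0.40), without a call.

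Pax5 was at 174, 218 and 159 CPM in WT and at 52.4, 153 and 109 in DKO B cell progenitors, so that all 3 DKO libraries lay under the WT libraries. The log2 fold change was -0.80 (standard error 0.34, 95% interval -1.55 to -0.05) and did not pass the test over all genes (adjusted p = 0.368). With a replicate block, an alternative given below, Pax5 was called lower. In DKO CLPs Pax5 had 75.2, 148 and 186 CPM, inside the WT range of 37.7 to 253. Pax5 reads per Ebf1 read, a ratio within a library that does not depend on its depth, were 0.258 to 0.313 in WT and 0.163 to 0.296 in DKO B cell progenitors. DKO libraries 2 and 3, at 0.163 and 0.181, lay below all other B cell progenitor libraries, the next being G2KO library 3 at 0.196.

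Pou2af1 had 1012, 1134 and 848 CPM in WT and 302, 863 and 623 CPM in DKO B cell progenitors, which gave -0.75 on the log2 scale (standard error 0.40, adjusted p = 0.475). DKO library 2 lay inside the WT range. Lef1 went the other way in the same libraries, with 84.9, 502 and 314 CPM in DKO and 167, 241 and 188 in WT (log2 fold change 0.60, standard error 0.63, adjusted p = 0.716). DKO libraries 2 and 3 stood above all WT libraries and library 1 stood below them, and the interval ran from -0.78 to 1.97.

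Bcl11a had the highest log2 fold change of the members in DKO B cell progenitors. It was at 173, 367 and 294 CPM in DKO, 129, 163 and 155 in WT, 122, 150.5 and 162 in G1KO, and 177, 201 and 189 in G2KO. All 3 DKO libraries lay above the WT and G1KO libraries, and DKO library 1 lay just under the G2KO libraries. The log2 fold change of 0.90 (standard error 0.22, 95% interval 0.42 to 1.39) missed the threshold over all genes (adjusted p = 0.105, edgeR). Without DKO library 1 the value was 1.15 and was called (adjusted p = 0.0111), and DESeq2 called it as well (adjusted p = 0.00375). In CLPs Bcl11a was at 196, 269 and 343 CPM in DKO and 218, 145 and 170.5 in WT (log2 fold change 0.59, standard error 0.23, adjusted p = 0.583).

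Bach2 separated DKO B cell progenitors from every other B cell progenitor library. It had 105, 166 and 159 CPM in DKO, 724, 652 and 614 in WT, 310.0, 501 and 367 in G1KO, and 268, 686 and 359.6 in G2KO. The fall of 2.21 on the log2 scale had a 95% interval of -2.91 to -1.51, beside a background of 0.893% of the 15001 tested genes called (33 higher and 101 lower). Against the single-deficient genotypes Bach2 was lower in DKO by log2 fold changes of -1.47 against G1KO (adjusted p = 0.115) and -1.63 against G2KO (adjusted p = 0.105), which did not pass. The single losses themselves gave -0.74 (standard error 0.31) and -0.58 (0.31), without a call. The departure of the double loss from the sum of the single losses was -0.89 (standard error 0.44, adjusted p = 0.364).

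In CLPs Bach2 was at 119.8, 106 and 134 CPM in DKO and at 111, 616 and 356 in WT. The log2 fold change of -1.59 (standard error 0.49) was not called (adjusted p = 0.399), and the WT group was split: WT library 1, one of the 4 with most Flt3, lay among the DKO libraries. Without WT library 1 Bach2 was called in CLPs (log2 fold change -2.04, adjusted p = 0.0412). It was also called without all 4 Flt3-rich libraries, an alternative chosen after seeing the data (-1.94, adjusted p = 0.0232). Without WT library 2 the value was -0.94 (adjusted p = 0.923). The difference between populations in the DKO effect was -0.62 (standard error 0.60, adjusted p = 1.00), so that the sizes in B cell progenitors and CLPs were not shown to differ.

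Markers of more mature B cells were also lower in all 3 DKO B cell progenitor libraries than in the other 9. The sum of 6 of the 7 genes on that list with a row in the files (Ms4a1, Cd22, Cr2, Fcer2a, Cd74 and H2-Aa) was 172 to 490.4 CPM in DKO B cell progenitors and 628 to 1348 in the other genotypes. Among these other libraries, WT library 1, with the most Bach2 (724 CPM), had the lowest sum (628) and G1KO library 1, at 310.0 CPM of Bach2, the highest (1348). In CLPs the sum was 226 to 518 in DKO and 376 to 1390 in the other genotypes. Of the latter, libraries WT 1, G1KO 2 and G2KO 2 had the least Bach2 (111, 142 and 167 CPM) and the lowest sums (376, 608 and 556). The remaining CLP libraries outside DKO had sums of 877 to 1390. No gene of this list was at 0 in any genotype, and its part in the Bach2 result was not tested. The general B lineage markers summed to 1601 to 4875 CPM in DKO and 1226 to 3074 in the other B cell progenitors. Myeloid markers were highest in libraries numbered 1 of G1KO, G2KO and DKO (6332 to 8281 CPM in both populations), the libraries with the least Ebf1 in their groups of B cell progenitors. Without all libraries numbered 1, an alternative also chosen after seeing the data, Bach2 remained called in DKO B cell progenitors (log2 fold change -1.96, adjusted p = 0.0118).

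**Figure D2:**
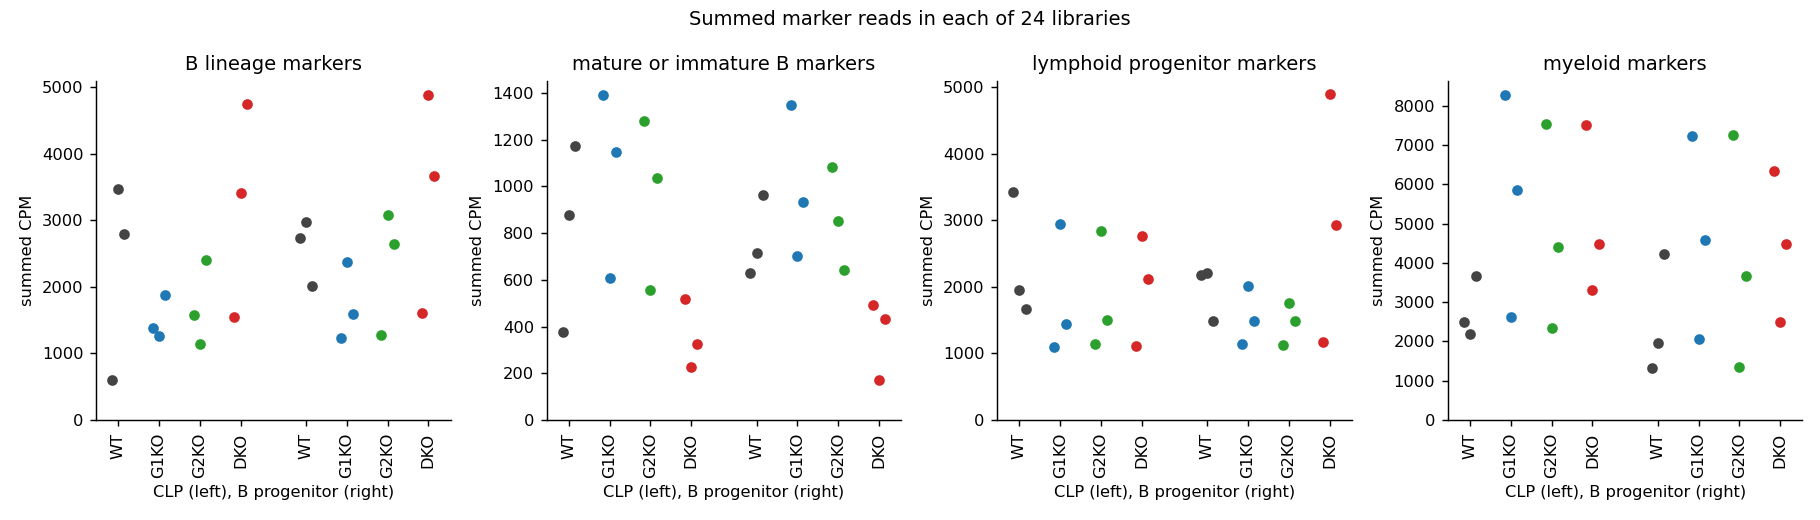
Summed normalized reads (CPM, axes from 0) of 4 marker lists in each library, by genotype and population (points, replicates 1 to 3 from left to right). The mature or immature B markers of DKO libraries reach at most 518 CPM, whereas the B lineage markers of DKO libraries 2 and 3 are the highest of B cell progenitors.

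Across all members, no difference from WT other than that of Bach2 passed the test. In CLPs 0 of 10 members were called in DKO (0.0921% of 15209 genes called), in G1KO (0.00658%) and in G2KO (0%). In B cell progenitors 1 of 10 was called in DKO (0.893% of 15001 genes called), 0 in G1KO (0.06%) and 0 in G2KO (0.0467%). Against G1KO, 0 members were called in DKO CLPs (0.0263%) and in DKO B cell progenitors (0.213%). Against G2KO, 0 were called in DKO CLPs (0.0526%) and in DKO B cell progenitors (0.153%). At an unadjusted threshold of 0.05, 2 members passed in DKO CLPs and 4 in DKO B cell progenitors, against 7.52% and 12.3% of all genes. Under DESeq2 0 members were called in DKO CLPs (1.11% of genes called), and 2, Bcl11a and Bach2, in DKO B cell progenitors (2.96%).

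Directions are given as a description only. In G1KO the fold changes of 9 of 10 members in CLPs and 10 of 10 in B cell progenitors were below 0, with medians of -0.56 and -0.60, beside -0.01 and 0.06 over all genes tested. In G2KO 9 and 8 of 10 were below 0, with medians of -0.58 and -0.28 beside 0.01 and 0.03. In DKO 6 of 10 were below 0 in each population, with medians of -0.11 in CLPs and -0.38 in B cell progenitors beside -0.03 and -0.02. These comparisons share the WT libraries, so their directions are not independent of each other. Without WT library 2 the median over the members in CLPs moved to -0.10 in G1KO and -0.07 in G2KO, and in DKO it changed sign to 0.46, with 8 of 10 members above 0.

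**Figure D3:**
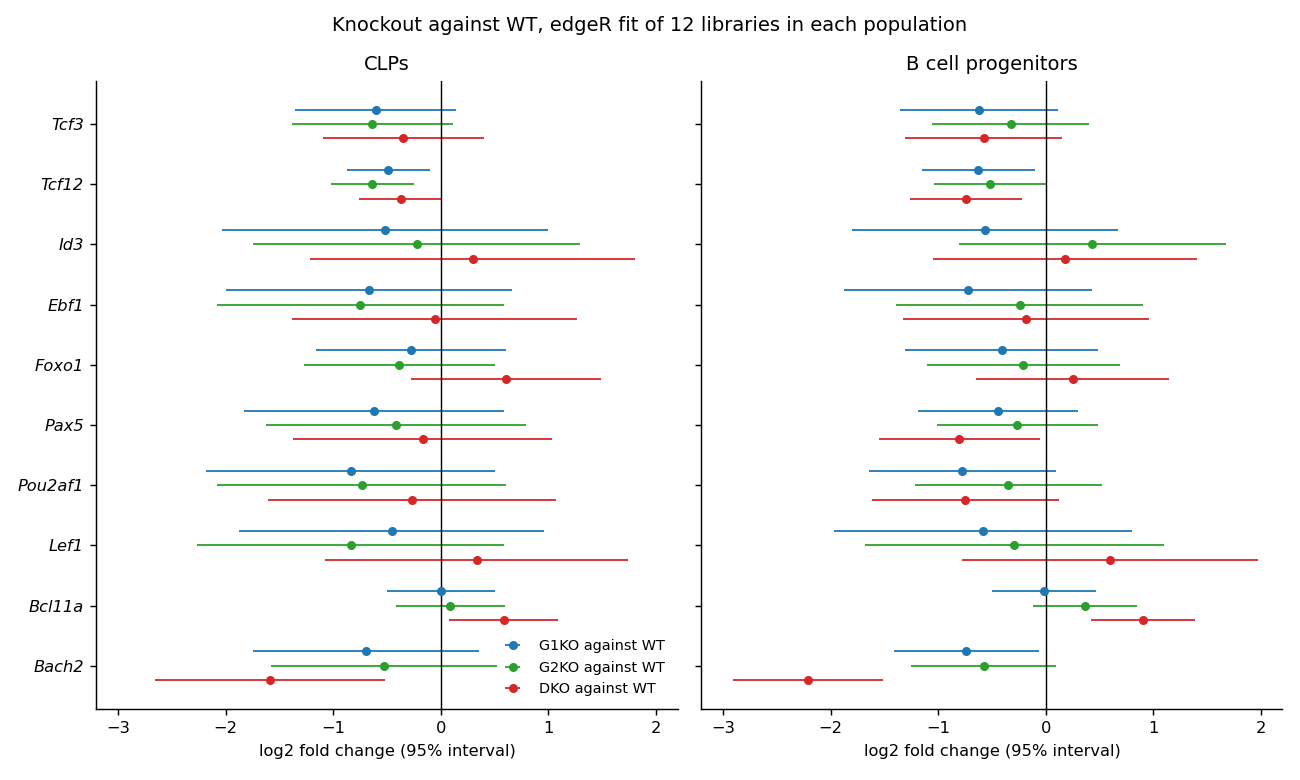
Log2 fold changes of the 10 members against WT in CLPs (left) and B cell progenitors (right), with 95% intervals from the edgeR fit, for G1KO, G2KO and DKO. The interval of Bach2 in DKO B cell progenitors, -2.91 to -1.51, is the only one of the 60 that belongs to a called difference.

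The non-additive effect asks whether the double loss departs from the sum of both single losses. No member was called in CLPs (0.0197% of genes called) or in B cell progenitors (0.0267%). In CLPs it was above 0 for 9 of 10 members, with a median of 0.97 (-0.04 over all genes tested) and the highest value for Lef1 at 1.63 (standard error 0.92, adjusted p = 0.862). Bach2 was the member below 0, at -0.37 (standard error 0.67). In B cell progenitors 8 of 10 were above 0, with a median of 0.39.

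Both populations were then compared within each genotype. In WT, 0 of 10 members were called between B cell progenitors and CLPs, whereas 3.5% of 17212 genes were. The share of genes called was 3.78% in G1KO, 3.21% in G2KO and 3.24% in DKO, again with 0 members each. Of the members, 9 of 10 were above 0 in WT, with a median of 0.38, the highest being Bach2 (0.88, standard error 0.42, adjusted p = 0.315) and Pou2af1 (0.73, standard error 0.55, adjusted p = 0.573), and Bcl11a was below 0 at -0.26 (0.24). No member was called as differing between genotypes in this step, with 0% of genes called for G1KO, 0% for G2KO and 0% for DKO against WT. Member adjusted p-values were about 1.00 in each of these interaction tests. Intervals were wide, such as -1.87 to 0.63 for Bach2 in DKO, so equal steps were not shown.

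Within single mice the step depended on which CLP library was used. Pou2af1 was higher in the B cell progenitors of 11 of 12 mice, Bach2 and Tcf12 in 10, Foxo1 in 9, Ebf1 and Tcf3 in 7, Id3 in 6, Pax5 and Lef1 in 5 and Bcl11a in 3. In the 4 mice with a Flt3-rich CLP library the median step, in log2 CPM, was 1.43 for Ebf1, 1.42 for Pax5, 2.05 for Pou2af1 and 1.93 for Bach2. In the other 8 mice it was -0.05, -0.17, 0.12 and 0.21. The ranges of these 2 sets of mice did not overlap for Ebf1 (0.95 to 2.48 against -0.19 to 0.81), Pou2af1 (0.77 to 3.19 against -0.21 to 0.71) or Foxo1 (0.571 to 1.496 against -0.286 to 0.327), and overlapped for the other 7 members. WT mouse 1 had the largest steps of the 12 mice in Ebf1, Pax5 and Bach2, from 99.9 to 557 CPM for Ebf1, from 37.7 to 174 for Pax5 and from 111 to 724 for Bach2. Bcl11a did not share this pattern, with a median of -0.29 in the 4 mice and -0.13 in the others.

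**Figure D4:**
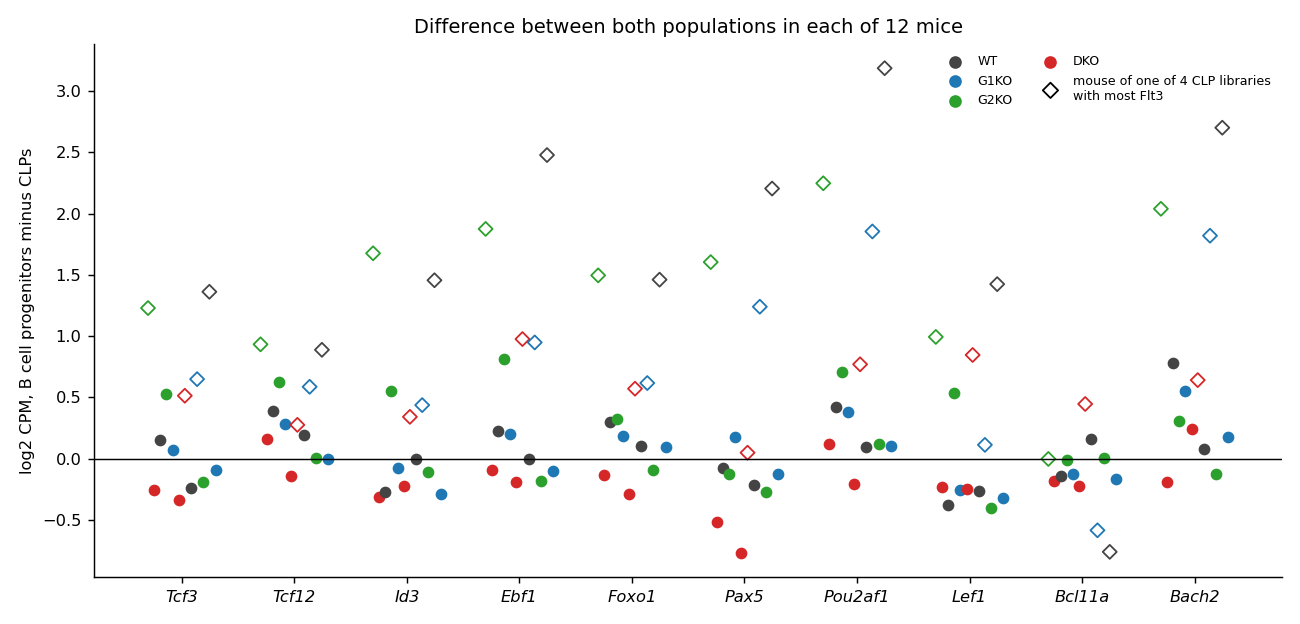
Difference in log2 CPM between the B cell progenitor and the CLP library of each of 12 mice, for the 10 members. Open diamonds mark the 4 mice whose CLP library had most Flt3, and the steps of Ebf1 in these 4 lie between 0.95 and 2.48, above those of the 8 other mice (-0.19 to 0.81).

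Levels of most members followed Ebf1 from library to library. Over the 12 CLP libraries Pearson's r with Ebf1, on log2 CPM, was 0.95 for Pou2af1, 0.93 for Pax5, 0.91 for Tcf3, 0.90 for Id3, 0.89 for Foxo1 and 0.89 for Lef1, and over the 12 B cell progenitor libraries it lay between 0.78 and 0.92 for these. Tcf12 had 0.60 and 0.76. Bach2 and Bcl11a stood out, with r of 0.49 and 0.09 in CLPs and 0.44 and 0.46 in B cell progenitors. Without the 3 DKO libraries, r of Bach2 with Ebf1 was 0.89 in CLPs and 0.81 in B cell progenitors (9 libraries each), and that of Bcl11a was -0.57 and 0.42. Libraries share their mouse and their cell makeup, and the sum of the B lineage markers also followed Ebf1 (r of 0.95 in CLPs and 0.87 in B cell progenitors), so these values are a description. Bach2 reads per Ebf1 read were 0.593, 0.177 and 0.264 in DKO B cell progenitors and 0.569 to 1.41 in the other genotypes. In CLPs they were 0.632, 0.223 and 0.195 in DKO and 0.547 to 1.16 in the others. In both populations DKO libraries 2 and 3 lay below all libraries of other genotypes and DKO library 1 lay inside their range.

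**Figure D5:**
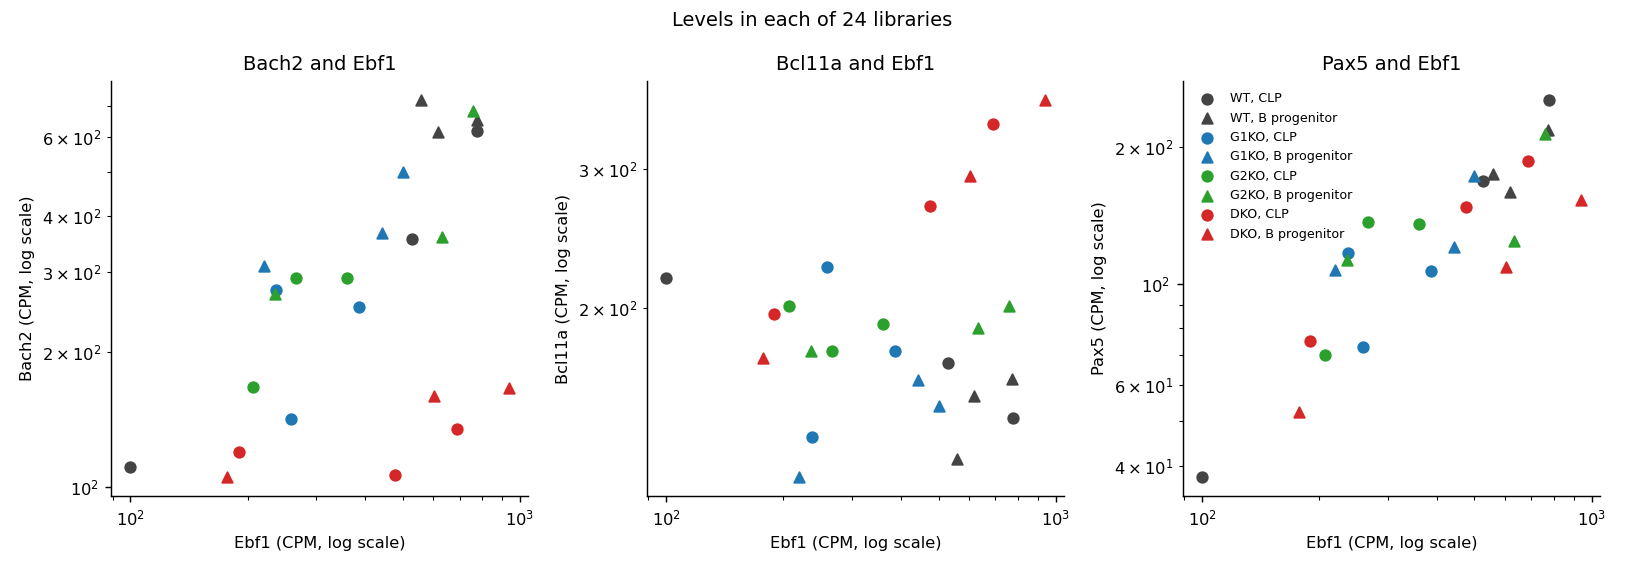
Levels of Bach2, Bcl11a and Pax5 against Ebf1 in each of 24 libraries (CPM, both axes on a log scale), coloured by genotype, with circles for CLPs and triangles for B cell progenitors. DKO libraries with 477 to 938 CPM of Ebf1 have 106 to 166 CPM of Bach2 and 269 to 367 CPM of Bcl11a, whereas WT libraries with 528 to 776 CPM of Ebf1 have 356 to 724 CPM of Bach2 and 129 to 170.5 CPM of Bcl11a.

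Targets of the network were read from lists of genes known to be activated by E2A, EBF1 or PAX5, repressed by PAX5, or activated by FOXO1. Of 15 activated targets, 3 were lower and 0 higher in DKO B cell progenitors, beside 0.893% of all genes called. They were Blk, a Src family kinase (log2 fold change -2.60, adjusted p = 0.00139), Fcrla, a B cell Fc receptor-like protein (-3.31, adjusted p = 0.00747), and Cd22, an inhibitory receptor (-1.62, adjusted p = 0.00747). The other 12 did not pass, and 10 of the 15 were above 0, so that the list's median was 0.32 beside -0.02 over all genes. The surrogate light chain gene Vpreb2 had the highest value, at 1.48. In CLPs Blk was lower as well (-2.63, adjusted p = 0.0257), with 27.1 ± 7.8 CPM in DKO and 168 ± 93.3 in WT (SD, n = 3), and 0 of the 15 were higher (0.0921% of all genes called). None of the 6 genes repressed by PAX5 was called in DKO in either population, with medians of 0.29 in B cell progenitors and 0.16 in CLPs.

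Of 12 genes activated by FOXO1 in lymphocytes, only Ccr7, a homing receptor, was called in DKO, beside 0.893% of all genes in B cell progenitors and 0.0921% in CLPs. It was lower by -2.29 in B cell progenitors (adjusted p = 0.00243) and by -2.33 in CLPs (adjusted p = 0.025). No other gene of the list was called. Of the 12, 4 were above 0 in B cell progenitors and 2 in CLPs, and the list's median was -0.37 and -0.20. Among 25 other regulators of early lymphoid and B cell fate, 2 were lower and 0 higher in DKO B cell progenitors, beside 0.893% of all genes called. They were Ikzf3 (encoding Aiolos) and Irf4, both of which act at the pre-B cell stage (-2.08, adjusted p = 0.0233, and -2.53, adjusted p = 0.0271). Irf4 stood at 111 ± 37.8 CPM in DKO and 645 ± 135 in WT (SD, n = 3). Between B cell progenitors and CLPs of WT, Pou2f1, an octamer factor (0.91, adjusted p = 0.0116), and Cbfb, the partner of Runx factors (0.64, adjusted p = 0.0353), were higher and 0 were lower. Of all genes, 3.5% were called there. No member of the activated, PAX5-repressed, FOXO1 or E protein lists was called in that comparison, and no gene of any list was called in G1KO or G2KO against WT. The shares of all genes called in G1KO and G2KO were 0.00658% and 0% in CLPs and 0.06% and 0.0467% in B cell progenitors.

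The genes most like Ebf1 and Pax5 across libraries were listed by Pearson's r of log2 CPM. In CLPs, over 12 libraries and 15199 genes, they were Gfra1, Chchd10, Arc, Syvn1 and Osbpl9 for Ebf1 (r of 0.97 to 0.98), and Cecr2, Prkcb, Bcl7a, Cd79b and Mtss1 for Pax5 (0.98 to 0.99). In B cell progenitors, over 12 libraries and 14991 genes, they were Osbpl9, Ucp2, Lgals9, Fam110a and Gpbp1 for Ebf1 (0.97 to 0.98), and Fndc9, Foxp1, Simc1, Phc1 and Plekha2 for Pax5 (0.96 to 0.98). Osbpl9 was on both lists for Ebf1. These libraries share mice and cell makeup, and the values describe these libraries only.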

How the data were processed

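The authors prepared poly(A) RNA libraries with a kit that does not mark strand, aligned the reads to mm10 with STAR (2.5.0a per the submitters' processing notes) and deposited, for each of 24 libraries, unnormalized read counts for 24421 genes. The counting program is not given in the sources used here. The lines for reads on no gene (17.9% to 87.3% of a library) and for ambiguous reads were left out of tests and library sizes. Group and mouse came from the sample labels.

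The quasi-likelihood test of edgeR 4.0.16 (R 4.3.3) was run on these counts after TMM scaling and filterByExpr, in one fit per population and one over all 24 libraries for comparisons between populations. Calls needed a Benjamini-Hochberg adjusted p over all tested genes no higher than 0.05 and a log2 fold change no smaller than 0.5 in size. Standard errors came from each gene's F value. CPM were scaled by TMM over all 24 libraries, with a prior count of 2 on the log2 scale. The scripts were tested on simulated counts. At these depths 3 reads were worth 0.0909 to 2.00 CPM, which covers counting error only. Named genes were the members, the targeted genes, up to 4 called genes per list by adjusted p, and the 5 genes most like Ebf1 or Pax5. The members and lists were chosen with earlier results of these data known. A gene of the B lineage marker and activated target lists is not reported here and was left out of their sums and counts. Alternatives were RLE size factors, no filter, DESeq2 1.42.0, a replicate block, thinned counts, adjusted p alone, groups fitted alone and each library left out. Figures were drawn with matplotlib in Python. The labels tie a CLP and a B cell progenitor library to each mouse by its number, and a fit with the mouse as a block was run for the population comparisons. Deviations of both libraries of a mouse from their group means correlated between -0.35 and 0.53 over the 12 mice. Replicates are recipients, and p-values measure the spread between them.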

Additional observations from a re-analysis of the deposited data

How the results depend on the processing

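The fall of Bach2 in DKO B cell progenitors was called under all 19 alternatives, with log2 fold changes of -2.32 to -1.96 and adjusted p of 9.25e-10 to 0.0408. Of 468 counts of called members under alternatives, 452 equalled the reported one or lay within 1.5 times of it. With DESeq2, 2 members were called in DKO against WT B cell progenitors (Bcl11a and Bach2, beside 2.96% of all genes), 2 in DKO against G1KO (Bcl11a and Bach2, 5.35%) and 1 in DKO against G2KO (Bach2, 1.07%). With the replicate block, 4 members were called in DKO against WT B cell progenitors (3.67% of genes): Bach2, Pax5 (-0.89, adjusted p = 0.0350), Tcf12 (-0.78, adjusted p = 0.0328) and Bcl11a (0.86, adjusted p = 0.0134). Under the block 2 were called against G1KO (0.667%) and 1 against G2KO (0.307%). Mice of different genotypes share only a replicate number. Over 18 same-numbered pairs of libraries in each population, correlations of deviations from the group means were -0.23 to 0.66 in CLPs (mean 0.229, 12 pairs over 0.1) and -0.53 to 0.71 among B cell progenitors (mean 0.0845, 8 pairs over 0.1), beside means of -0.114 and -0.0429 for other pairs. CLP library WT 1 correlated more with libraries numbered 2 (0.37 to 0.48), so not every library was closest to its own number. Since not every same-numbered pair was over 0.1, the numbers were not taken as a pairing. For the population comparisons, where the number marks a mouse, the block changed no call. Without all libraries numbered 1, chosen after seeing the data, 2 members were called in DKO against WT B cell progenitors (0.884% of genes), 3 against G1KO (Bcl11a, Lef1 and Bach2, 1.93%), 1 against G2KO (0.247%) and 2 in the non-additive effect (Bcl11a and Lef1, 13.9%). Without the 4 Flt3-rich CLP libraries, also chosen later, 1 member was called in DKO against WT CLPs (Bach2, 0.168%). With single libraries left out, the counts ran from 0 to 1 in DKO against WT CLPs (Bach2 without WT 1). In DKO against WT B cell progenitors they ran from 1 to 2 (Bcl11a added without DKO 1). There they ran from 0 to 1 against G1KO (Bcl11a without DKO 1, Bach2 without G2KO 2) and from 0 to 1 against G2KO (Bach2 without G2KO 1). The share of all genes called in each of these refits is not given here. Gained calls are therefore not read as a trait of the members.

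Of 1480 log2 fold changes of members under alternatives, 1408 kept their direction and their side of the threshold, 8 gained a call and 64 changed sign. Signs of small, uncalled log2 fold changes turned under some settings, and the largest of these was 0.53 in size; the cause was not tested. With single libraries left out, DKO against WT CLPs ranged from -0.55 to 0.55 for Ebf1, -0.65 to 0.42 for Pax5, -0.69 to 0.15 for Tcf3, -0.11 to 0.73 for Lef1, -0.78 to 0.46 for Pou2af1 and -0.29 to 0.78 for Id3. In G1KO CLPs Foxo1 ranged from -0.63 to 0.14 and Bcl11a from -0.18 to 0.17. In G2KO CLPs Pax5 ranged from -0.92 to 0.15, Foxo1 from -0.75 to 0.025, Bcl11a from -0.035 to 0.24, Bach2 from -0.99 to 0.10 and Id3 from -1.04 to 0.25. In DKO B cell progenitors Ebf1 ranged from -0.73 to 0.25, Foxo1 from -0.22 to 0.63 and Id3 from -0.17 to 0.58. Bcl11a ranged from -0.12 to 0.038 in G1KO, and Ebf1 from -0.58 to 0.082, Lef1 from -0.68 to 0.077 and Id3 from -0.10 to 0.81 in G2KO. Between WT populations Pax5 ranged from -0.16 to 0.84, Tcf3 from -0.025 to 0.74, Lef1 from -0.39 to 0.39 and Id3 from -0.31 to 0.62. Without the Flt3-rich libraries, Lef1 was at -0.17 and Id3 at -0.099 in DKO CLPs, Bcl11a at -0.025 in G1KO CLPs, and Pax5 at -0.16, Tcf3 at -0.026, Lef1 at -0.39 and Id3 at -0.31 between WT populations. Without libraries numbered 1, Ebf1 was at 0.14 in DKO B cell progenitors, and Pax5 at -0.13, Tcf3 at -0.053, Bcl11a at 0.028, Lef1 at -0.29 and Id3 at -0.13 between WT populations. With the replicate block, Bcl11a was at -0.024 in G1KO CLPs and Id3 at -0.036 in DKO B cell progenitors. Thinned to the smallest library, Bcl11a was at -0.051 in G1KO CLPs and 0.11 in G1KO B cell progenitors. Lef1 between WT populations was at -0.0042 thinned, -0.017 with RLE size factors and -0.020 with DESeq2.

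With 3 libraries a genotype, the 95% interval of the difference between DKO and WT CLPs ran from -1.38 to 1.27 for Ebf1, from -1.37 to 1.03 for Pax5 and from -1.21 to 1.80 for Id3. The lowest count of any member in any library was 85 reads, for Id3. Donor sex cannot be told apart from the Plcg1 genotype.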
